A study of Mus musculus with 12 samples.

Results

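The collagen gene family was examined in 12 RNA-seq libraries from 4T1 tumours of BALB/c mice. Members were the rows of the deposited gene table whose symbol reads Col, digits, a and digits, with reads in at least 1 library. This gave 44 of the 18433 genes, and 1 further row that only starts this way, Col4a3bp, was left out because it is not a collagen. 4T1 is a mouse mammary carcinoma line, and the cells had been placed under the skin of the right flank. Tumour-bearing mice were randomised to 4 groups of 5: a control group, a group dosed orally with the drug labelled DSF, a group injected intraperitoneally with a blocking antibody to PD-1, an inhibitory receptor of T cells, and a group given both, called the combination here. Each group had 3 libraries of whole tumour RNA, and dose, schedule and age are not given in the sources used here. The labels do not say that each library came from a separate mouse, so the p-values measure the spread between these samples.

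Collagens are extracellular matrix proteins built from alpha chains that wind around each other into a rigid helix. Fibrillar collagens, led by types I and III, form the tensile fibrils of connective tissue and are made mostly by fibroblasts. Type IV collagen forms the sheet-like network of basement membranes under epithelia and around vessels. The remaining types coat fibrils, anchor epithelia to the underlying stroma, form beaded filaments or span the plasma membrane. In tumours, collagens are regarded mainly as products of the stroma, although carcinoma cells make some of them, basement membrane types included.

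The 44 members comprised 11 fibrillar, 8 basement membrane and 25 other collagens. After a filter on low counts, 34 were tested: 9 fibrillar, 6 basement membrane and 19 other. Total counts per library ranged from 13323171 to 16809705. Levels of a gene are given in CPM, that is counts scaled to a common library size, and levels of different genes are compared only in FPKM, which corrects for transcript length. Markers of the 4T1 epithelium took 0.0979% to 0.134% of counts in the 12 libraries. DSF replicate 2 stood apart from the rest. Adipocyte markers took 0.69% of its counts (95% Wilson interval 0.686 to 0.694, counting error only), against 0.00419% to 0.0431% in the other libraries. Its fibroblast markers were also the highest, at 0.0884% (0.0869 to 0.0898) against 0.03% to 0.0613%, as were its endothelial markers at 0.0556% (0.0544 to 0.0567) against 0.015% to 0.0409%. Results that rest on this library are therefore given with and without it, and the part of these cell types in them was not tested.

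By mean FPKM over the 12 libraries, the family was led by Col3a1 at 227, Col1a1 at 152 and Col1a2 at 138. The main basement membrane chains came next, with Col4a1 at 109.9, Col18a1 at 99.8 and Col4a2 at 60.2 FPKM. Of the other collagens, the microfibril chain Col6a1 (57.9), the fibril-associated Col16a1 (53.2) and the network collagen Col8a1 (32.7) had the highest mean FPKM. Libraries overlapped widely in this order: Col1a1 ranged from 29.2 to 369.9 FPKM and Col4a1 from 78.7 to 172.9 FPKM, so these neighbours changed places between libraries. Together the 44 genes took a mean of 0.609% ± 0.132 of counts in controls (SD, n = 3 in each group), 0.699% ± 0.483 with DSF, 0.546% ± 0.125 with anti-PD-1 and 0.644% ± 0.105 with the combination. DSF replicate 2 was at 1.25%, and without it the DSF mean was 0.423% (n = 2), the lowest of the 4 groups instead of the highest.

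**Figure D1:**
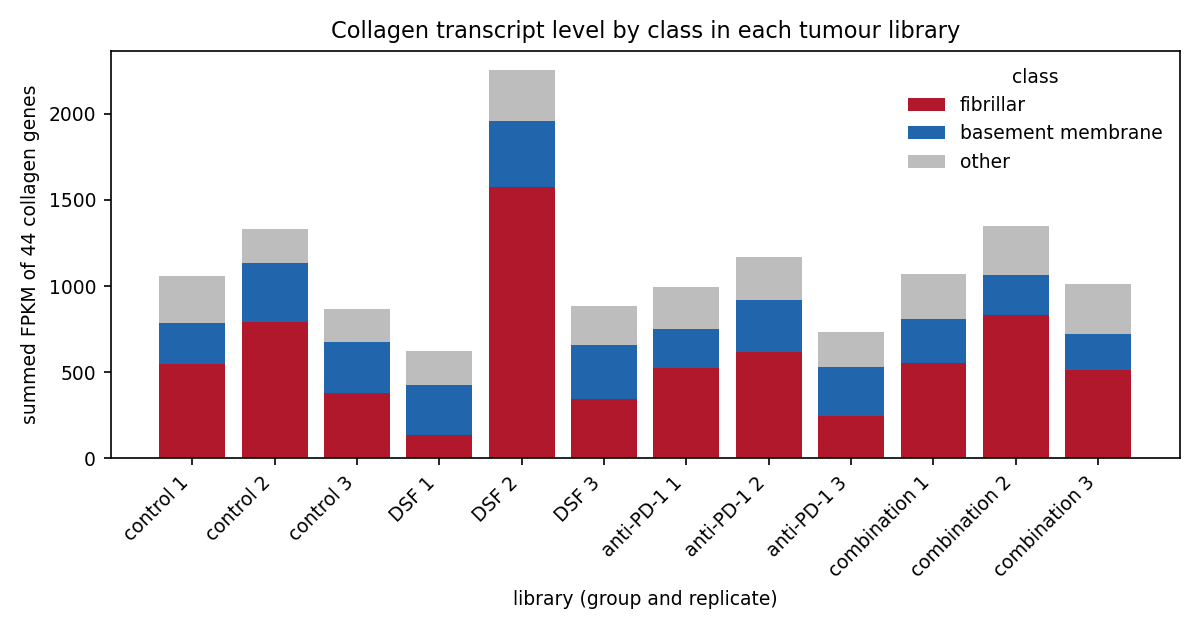
Summed FPKM of the 44 collagen genes in each of the 12 libraries, split into fibrillar, basement membrane and other collagens (stacked bars from 0). DSF replicate 2 is the highest at 2252 FPKM, of which 1572 is fibrillar, and DSF replicate 1 is the lowest at 626 FPKM, of which 134 is fibrillar.

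Proximal promoters are shown for a pair of fibrillar genes whose levels moved together across libraries, Col1a2 and Col3a1, and for Col17a1, the 1 collagen that passed the test in any comparison. RefSeq windows (GRCm38.p6) were matched by gene identifier for 35 of the 44 members, in 38 windows, and each line gives the 120 bases before the annotated start, 5′ to 3′ on the strand of the gene. Capitals mark matches to CCAAT or TATAAA on either strand, so that ATTGG is CCAAT read on the opposite strand.
Col1a2 (chr6:4505498-4505617, plus strand): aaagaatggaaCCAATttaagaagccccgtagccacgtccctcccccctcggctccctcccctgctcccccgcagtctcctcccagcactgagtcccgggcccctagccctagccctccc
Col3a1 (chr1:45311418-45311537, plus strand): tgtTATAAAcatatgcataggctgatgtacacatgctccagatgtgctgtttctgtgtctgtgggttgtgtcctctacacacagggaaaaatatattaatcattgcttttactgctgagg
Col17a1 (chr19:47692043-47692162, minus strand): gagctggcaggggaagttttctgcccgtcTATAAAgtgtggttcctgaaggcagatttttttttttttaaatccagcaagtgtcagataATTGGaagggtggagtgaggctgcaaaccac
In the 250 bases before the start, CCAAT occurred in 13 of the 38 collagen windows and in 33.8% of all 32851 RefSeq windows. TATAAA occurred in 5 of the 38 collagen windows and in 12.4% of all windows. These matches describe the letters and do not mark a bound site. The windows of Col4a1 and Col4a2, which are 300 bases long, lie on opposite strands and overlap by 78 bases. The windows of both chains of the main type IV trimer thus share a stretch of DNA.

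Fibrillar collagens spread widely between libraries, above all within the DSF group. Col1a1 (NCBI gene 12842), which encodes the major chain of type I collagen, was at 958, 1306 and 465 CPM in the control libraries and at 173, 2178 and 606 CPM with DSF. It was at 717, 914 and 341 CPM with anti-PD-1 and at 712, 1298 and 827 CPM with the combination. The highest and the lowest library were both DSF libraries, and all 4 groups overlapped. Col1a2 (12843), the partner chain of type I collagen, was at 696, 1009 and 373 CPM in controls, 144, 1717 and 407 CPM with DSF, 630.1, 743 and 272 CPM with anti-PD-1 and 655, 1069 and 623 CPM with the combination. Col3a1 (12825), the chain of the type III homotrimer that is found in the same fibrils, was at 1004, 1567 and 836 CPM in controls and at 249, 3932 and 568 CPM with DSF. It was at 1129, 1292 and 494 CPM with anti-PD-1 and at 1141, 1527 and 936 CPM with the combination. DSF replicate 2 was the highest and DSF replicate 1 the lowest of the 12 libraries for all of these chains.

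Across libraries, Col3a1 spanned a 15.8-fold range in CPM, Col1a1 12.6-fold and Col1a2 11.9-fold, and without DSF replicate 2 the ranges were 6.29-fold, 7.57-fold and 7.43-fold. The type V chains, which help to set fibril diameter, followed with 6.06-fold for Col5a2, 5.94-fold for Col5a3 and 4.73-fold for Col5a1. Over the 9 tested fibrillar genes the median range was 5.94-fold, and 3.79-fold without that library. For the 19 other collagens it was 4.36-fold and 4.14-fold, so without DSF replicate 2 the fibrillar class did not have the widest median range. The basement membrane medians were 4.65-fold and 2.41-fold. DSF replicate 2 was the highest of the 12 libraries for 7 of the 9, and DSF replicate 1 was the lowest for 7 of the 9. Over all 34 tested collagens these libraries were the highest for 18 and the lowest for 12, against 17.2% and 10.6% of all genes tested. The CPM of DSF replicate 2 was 2.42 times the median of the other 11 libraries for the median fibrillar gene, 1.68 times for the basement membrane genes and 1.15 times for the other collagens, against 0.989 times over all genes tested. In a whole tumour, fewer cells of a type and less RNA per cell cannot be told apart.

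**Figure D2:**
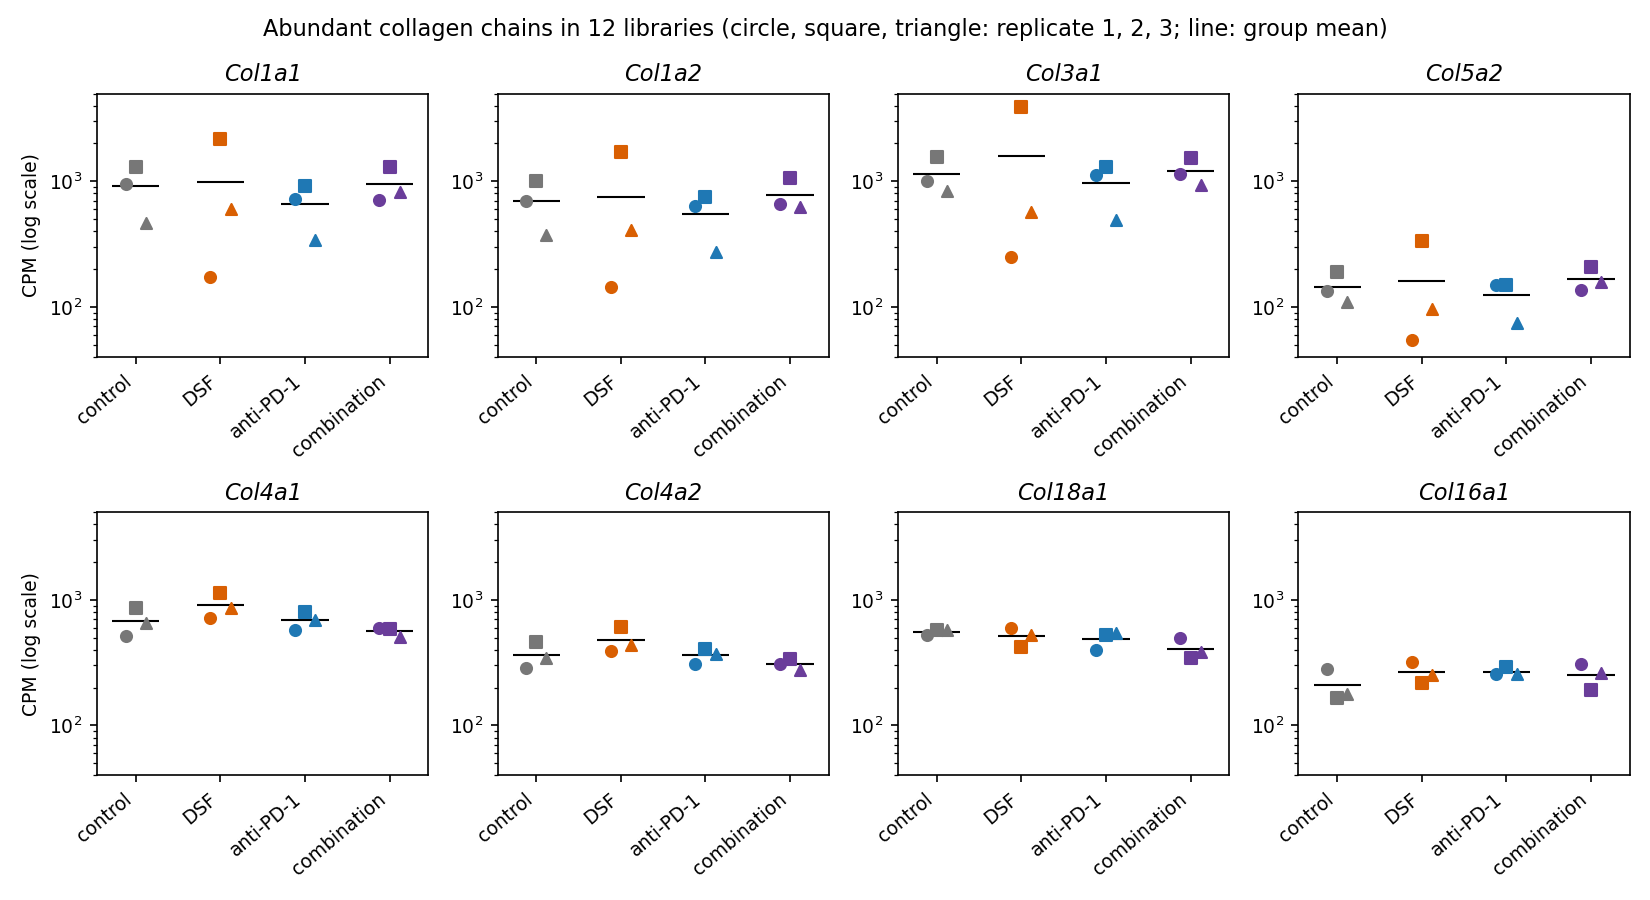
CPM of 8 abundant collagen chains in the 12 libraries, on a log axis, by group. Circles, squares and triangles are replicates 1, 2 and 3 and the lines are group means; Col1a1 spans 173 to 2178 CPM within the DSF group, whereas Col4a1 spans 712 to 1140 CPM there.

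The partner chains of type I and of type IV collagen kept close to a fixed proportion while their levels varied. The FPKM of Col1a2 divided by that of Col1a1 was between 0.767 and 1.05 in all 12 libraries, with a median of 0.912, although the FPKM of Col1a2 itself varied 12-fold and that of Col1a1 12.7-fold. The ratio of Col4a2 to Col4a1 was tighter still, from 0.521 to 0.594 with a median of 0.548. The FPKM of these chains varied less, 2.14-fold for Col4a2 and 2.2-fold for Col4a1. The ratio of Col3a1 to Col1a1, which form separate molecules, ran from 1.00 in DSF replicate 3 to 1.93 in DSF replicate 2. The chains of type VI collagen, which form beaded microfibrils around cells, varied more. Col6a2 relative to Col6a1 ran from 0.279 in DSF replicate 1 to 0.69 in DSF replicate 2, and Col6a3 relative to Col6a1 from 0.185 in DSF replicate 1 to 0.422 in control replicate 2. Of the type V chains, Col5a2 relative to Col5a1 ran from 0.651 in DSF replicate 1 to 1.91 in control replicate 3. Col5a3 relative to Col5a1 ran from 0.789 to 3.17, and the highest value was in control replicate 3. These ratios share a library and its depth, and they are given as a description without a test.

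**Figure D3:**
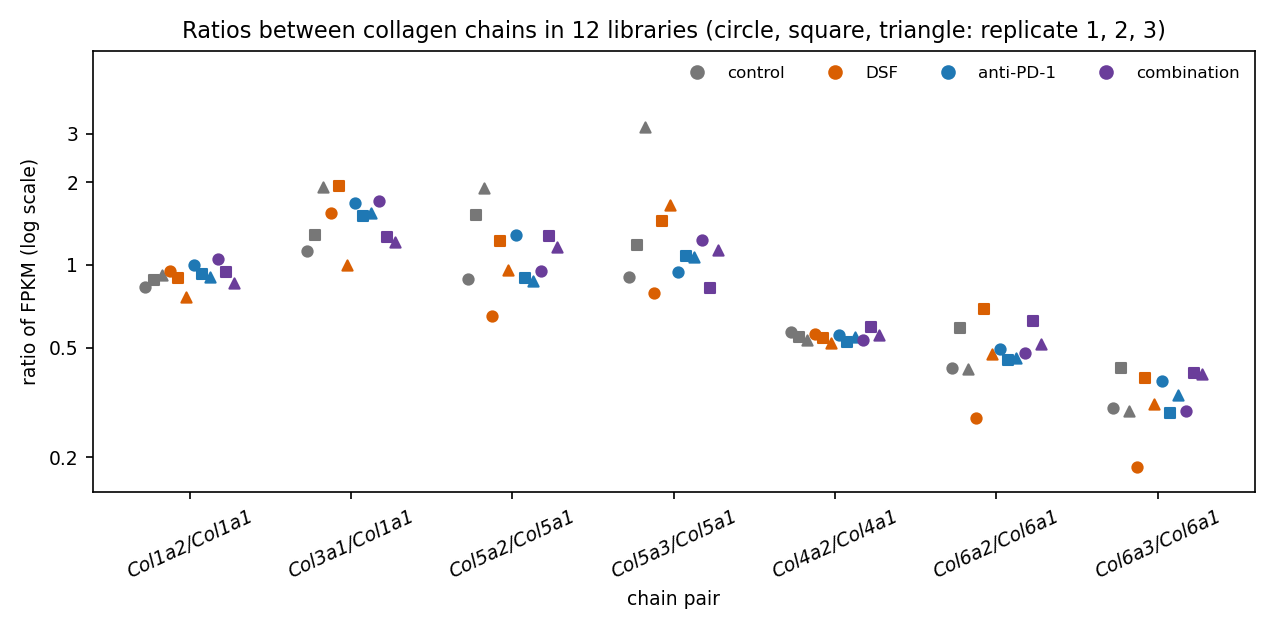
Ratio of the FPKM of pairs of collagen chains in each of the 12 libraries (log axis, colour by group, symbol by replicate). Col1a2/Col1a1 (0.767 to 1.05) and Col4a2/Col4a1 (0.521 to 0.594) form narrow bands, whereas Col5a3/Col5a1 spreads from 0.789 to 3.17.

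The main basement membrane chains spread less between libraries, by 2.26-fold for Col4a1, 2.2-fold for Col4a2 and 1.73-fold for Col18a1 in CPM, while the median over the 6 tested genes of this class was 4.65-fold. Col4a1 (12826) was at 517, 865 and 654 CPM in controls, 712, 1140 and 863 CPM with DSF, 572, 793 and 687 CPM with anti-PD-1 and 597, 582 and 505 CPM with the combination. The DSF libraries lay above all combination libraries, and both groups overlapped the controls. Col4a2 (12827) had the same order, with 391, 604 and 439 CPM with DSF and 309, 337 and 275 CPM with the combination. It was at 286, 462 and 341 CPM in controls and at 311, 406 and 368 CPM with anti-PD-1. Col18a1 (12822), the source of endostatin, was at 521, 573 and 570.2 CPM in controls, 592, 418 and 523 CPM with DSF, 398, 525 and 549 CPM with anti-PD-1 and 494, 343 and 383 CPM with the combination. All its combination libraries were below all controls. Col15a1, the related multiplexin of the zone next to basement membranes, instead followed the fibrillar pattern, with 169.8 CPM in DSF replicate 2 and 21.0 to 64.7 CPM elsewhere.

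The other collagens held the members with the widest ranges. Col6a5, a long type VI chain, spanned 42.5-fold, from 0.367 CPM in DSF replicate 3 to 15.6 CPM in combination replicate 1. Col14a1, a fibril-associated collagen, spanned 39-fold, from 1.76 CPM in DSF replicate 3 to 68.7 CPM in DSF replicate 2. Col17a1, the transmembrane collagen of hemidesmosomes that fastens basal keratinocytes to the basement membrane, spanned 37.3-fold. At the other end, Col20a1 spanned only 1.35-fold and Col16a1 1.95-fold, so these fibril-associated types did not share the spread of types I and III. Col8a1, a short-chain network collagen, had its lowest value of the 12 libraries, 66.9 CPM, in DSF replicate 2, where the fibrillar chains were highest. Its highest value was 230.4 CPM in control replicate 1.

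Of the 44 members, 10 did not pass the filter on low counts and were not tested, most of them cartilage or specialised types. Col4a3 and Col19a1 had reads in all 12 libraries, at 2 to 6 and 1 to 5 counts. The cartilage collagen gene Col2a1 was detected in 10 libraries with up to 8 counts, Col11a1 in 9 with up to 32, and Col10a1, a product of hypertrophic cartilage, in 8 with up to 4. Col26a1 and Col22a1 were each detected in 7 libraries, Col4a6 in 5, Col9a2 in 3 and Col9a1 in 2, with at most 6 counts in any library. A count of 0 allows up to 3 counts, or 0.178 to 0.225 CPM depending on the library. Col9a3, the partner of Col9a1 and Col9a2, was tested, at 0.526 to 1.25 CPM.

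To ask whether DSF alone altered the collagens, DSF was compared with control, using edgeR's quasi-likelihood test with Benjamini-Hochberg adjustment over all 14144 genes tested. None of the 34 collagens passed an adjusted p of 0.05, as 0% of all genes did, and 0 passed at an unadjusted p of 0.05, against 10.6% of all genes. DESeq2 also called 0 of the 34, against 1.56% of all genes. The direction of the fibrillar group turned on a single library. With all libraries, 7 of 9 fibrillar genes had a higher mean with DSF and the median log2 fold change was 0.165. Without DSF replicate 2, 0 of 9 were higher and the median was -0.918. Over all genes the medians were 0.0308 and 0.00391. Col3a1 was at 0.479 ± 0.776 (log2 fold change ± SE, edgeR adjusted p = 0.878) with all libraries and at -1.47 ± 0.464 without DSF replicate 2 (adjusted p = 0.321). Col1a1 went from 0.116 ± 0.716 (edgeR adjusted p = 0.974) to -1.22 ± 0.592 (adjusted p = 0.415). Without that library 5 of the 34 had an unadjusted p under 0.05, against 12.7% of all genes, and 0 were called, as were 0% of all genes. Fibroblast markers moved the same way. In DSF replicates 1 and 3 they took 0.03% (0.0292 to 0.0309) and 0.0367% (0.0357 to 0.0377) of counts, against 0.0362% to 0.0574% in controls. The median log2 fold change of the 13 fibroblast markers was 0.343 with DSF replicate 2 and -1.08 without it. Endothelial medians were 0.296 and -0.57, adipocyte medians 3.54 and -2.2, and pericyte and Schwann cell medians also turned from positive to negative. Those of macrophage, skin, cartilage and bone, and 4T1 epithelium markers kept their sign, and that of skeletal muscle turned the other way. The part of these cell types in the result was not tested.

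The basement membrane genes had a median log2 fold change of 0.406 with DSF against control, and of 0.0542 without DSF replicate 2. Col4a1 was higher by 0.416 ± 0.209 (log2, edgeR adjusted p = 0.521) and Col4a2 by 0.396 ± 0.198 (adjusted p = 0.518), with overlapping libraries and no call. Without DSF replicate 2 they were higher by 0.227 ± 0.203 and 0.203 ± 0.187. Col12a1, a fibril-associated collagen, had the smallest p of the family in this comparison, at -0.648 ± 0.311 (edgeR adjusted p = 0.499). Col23a1, a transmembrane collagen, was at -0.926 ± 0.563 (edgeR adjusted p = 0.588), with all DSF libraries below all controls. Such a separation downward occurred in 1 of the 34 collagens, against 6.4% of all genes.

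Anti-PD-1 alone was compared with control in the same fit. None of the 34 collagens was called, as for 0% of all genes, and 0 reached an unadjusted p of 0.05, against 1.73% of all genes. DESeq2 also called 0, as for 0% of all genes. The fibrillar median was -0.225, with 2 of 9 genes higher, the basement membrane median was -0.0921 and that of the other collagens 0.0535. The sign of each turned as single libraries were left out: the fibrillar median ran from -0.483 to 0.0573 (above 0 without control replicate 2 or anti-PD-1 replicate 3), the basement membrane median from -0.17 to 0.0764 (above 0 without control replicate 2 or anti-PD-1 replicate 1) and that of the others from -0.137 (without anti-PD-1 replicate 1) to 0.241. The 5 smallest p-values belonged to Col9a3 (log2 fold change 0.649 ± 0.379), Col16a1 (0.362 ± 0.228), Col13a1 (-0.674 ± 0.589), Col18a1 (-0.178 ± 0.170) and Col4a5 (0.699 ± 0.670), all with an edgeR adjusted p of 0.999. Leaving out single libraries moved Col13a1 between -1.04 and -0.0817, Col4a5 between 0.301 and 2.04, Col16a1 between 0.226 and 0.659 and Col18a1 between -0.256 and -0.0464.

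The combination was compared with control to ask what both agents did together. By edgeR none of the 34 was called, as for 0% of all genes. At an unadjusted p of 0.05, 4 of the 34 passed, against 11.2% of all genes. Col17a1 was higher by 2.46 ± 0.658 on the log2 scale (edgeR adjusted p = 0.256), Col6a5 by 2.51 ± 0.949 (adjusted p = 0.363) and Col23a1 by 1.34 ± 0.553 (adjusted p = 0.395). Col18a1 was lower, at -0.448 ± 0.170 (edgeR adjusted p = 0.363). Without combination replicate 1, which had 15.6 CPM against 4.96 and 2.21 CPM in the other combination libraries, Col6a5 was higher by 1.43. In all 4, every combination library lay on one side of every control library. Such a separation occurred upward in 6 of the 34 collagens, against 11.5% of all genes, and downward in 1, Col18a1, against 7.79%. The fibrillar median was 0.175, the basement membrane median -0.214 and that of the other collagens 0.326, beside 0.0152 over all genes. The fibrillar median was -0.0702 without combination replicate 2, and the basement membrane median was 0.169 without control replicate 2.

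The combination against DSF was the comparison in which a collagen passed the test. Col17a1 (12821) was at 13.3, 10.4 and 6.82 CPM with DSF and at 45.2, 89.7 and 128.5 CPM with the combination. It was at 11.8, 14.6 and 21.3 CPM in controls and at 37.3, 3.45 and 21.8 CPM with anti-PD-1. All 3 combination libraries were above all 9 other libraries. Col17a1 rose by 3.10 ± 0.681 on the log2 scale (edgeR adjusted p = 0.0472), and it was the 1 collagen called of 34, against 1.86% of all genes. Col23a1 was at 4.2, 2.69 and 3.52 CPM with DSF and at 10.3, 18.2 and 21.8 CPM with the combination, a difference of 2.27 ± 0.576 (edgeR adjusted p = 0.0662). Col12a1 was at 130.2, 169 and 132 CPM with DSF and at 241, 429.8 and 329 CPM with the combination, a difference of 1.21 ± 0.314 (edgeR adjusted p = 0.0678). Both had all combination libraries above all DSF libraries, as for 12.3% of all genes, without passing the test. DESeq2 called 5 of the 34 in this comparison, namely Col17a1, Col23a1, Col12a1, Col4a1 and Col4a2, against 8.27% of all genes.

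The call of Col17a1 was close to the threshold. Its adjusted p was above 0.05 when any of the 3 control or 3 DSF libraries, anti-PD-1 replicate 3 or combination replicate 2 or 3 was left out (0.0536 to 0.169), while its log2 fold change stayed between 2.71 and 3.40. Over all genes, the number called in this comparison was 263 and ranged from 0 to 601 as single libraries were left out. It was 0 without control replicate 2, DSF replicate 3, anti-PD-1 replicate 3 or combination replicate 2 or 3, so every call named for this comparison, those of skin markers and collagen partners included, was lost there.

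The share of skin epithelium markers, like Col17a1 and Col23a1, was higher in all combination libraries than in all DSF libraries. Both collagens are known from epidermis. The skin list took 0.104% (0.103 to 0.106), 0.58% (0.576 to 0.584) and 0.315% (0.312 to 0.318) of counts in the combination libraries and 0.0107% to 0.0232% in the DSF libraries. It took 0.026% to 0.0556% in controls and 0.0124% to 0.108% with anti-PD-1. Of its 13 tested genes, 7 rose in the combination against DSF (Krt1, Flg, Dsg1a, Dsc1, Sbsn, Krtdap and Trp63), against 1.6% of all genes called higher, and all 13 had a higher mean, with a median log2 fold change of 3.60. The hair keratins Krt25 and Krt27 were at 0 in all controls and Krt71 in all DSF libraries. Of the 9 tested markers of the 4T1 epithelium, 1 was called higher in the combination against DSF and 0 lower. By mean, 4 of them were higher and 5 lower, with a median log2 fold change of -0.163. The list was split: at an unadjusted edgeR p under 0.05, 4 were higher and 2 lower, against 18.9% of all genes. Outside the combination, the highest Col17a1 and Col23a1 values (37.3 and 16.4 CPM) were in anti-PD-1 replicate 1, which also had the highest skin share there, 0.108% (0.106 to 0.110). Both collagens followed the skin share in order across the anti-PD-1 libraries. Combination replicate 2 had the highest skin share, but both collagens were highest in combination replicate 3 (128.5 and 21.8 CPM). From control replicate 1 to 3 the skin share rose, and Col17a1 rose with it, while Col23a1 fell from 8.65 to 5.00 CPM. The part of skin tissue in these results was not tested. Col7a1, the anchoring fibril collagen that also serves the epidermal junction, did not share this pattern: it was at 101.0, 136 and 208 CPM with DSF and at 132, 108 and 118 CPM with the combination (log2 fold change -0.318 ± 0.319, edgeR adjusted p = 0.643).

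**Figure D4:**
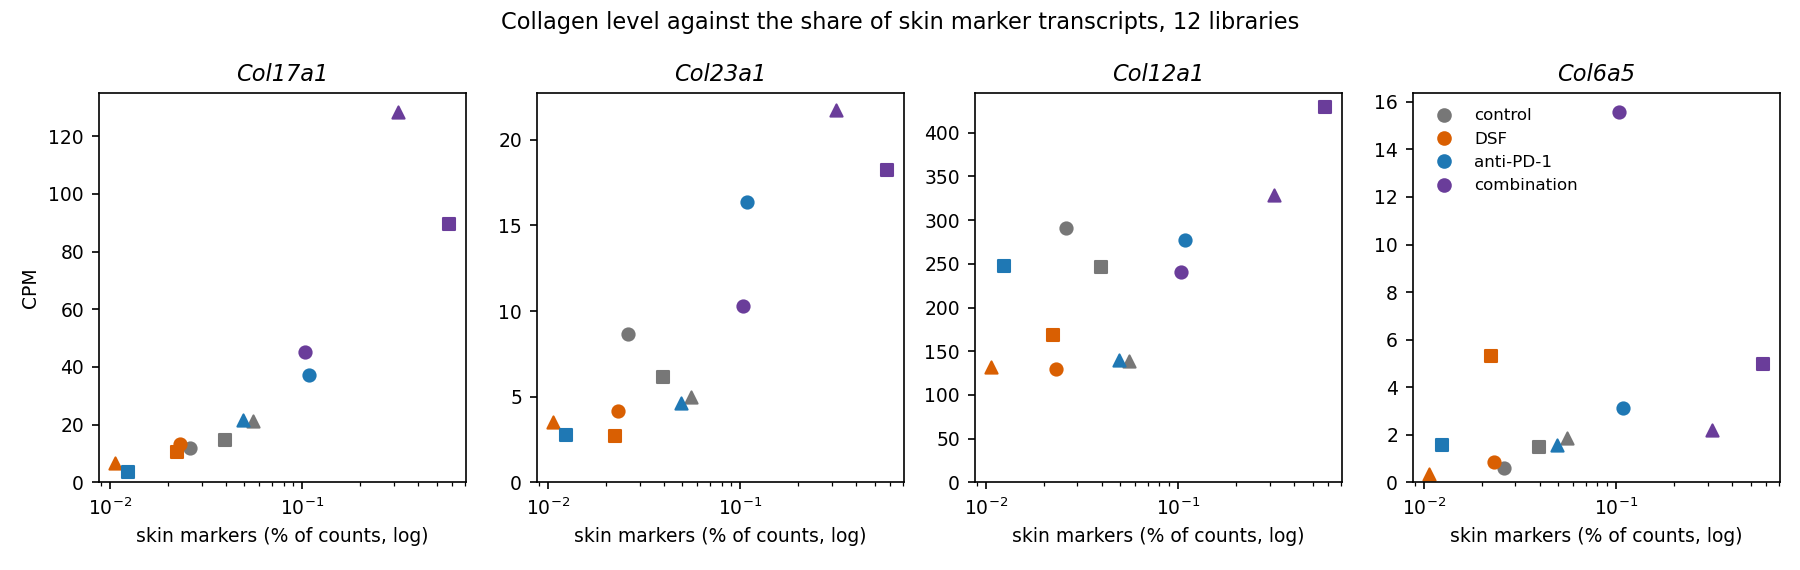
CPM of Col17a1, Col23a1, Col12a1 and Col6a5 against the share of counts taken by skin markers (log axis) in the 12 libraries, coloured by group, with circles, squares and triangles for replicates 1, 2 and 3. The combination libraries lie at skin shares of 0.104% to 0.58% with Col17a1 at 45.2 to 128.5 CPM, and Col6a5 is highest in the combination library with the lowest skin share.

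The type IV chains Col4a1 and Col4a2 were lower in the combination than with DSF without passing the test. The type IV chains Col4a4 and Col4a5, both at low levels, were not lower, at 0.523 ± 0.615 and 0.269 ± 0.680. Without DSF replicate 2 they were at 0.852 and -0.106. Col4a1 differed by -0.690 ± 0.210 on the log2 scale (edgeR adjusted p = 0.103) and Col4a2 by -0.639 ± 0.199 (adjusted p = 0.110), and without DSF replicate 2 by -0.498 ± 0.202 and -0.443 ± 0.187. In this comparison 6 of the 34 collagens had an unadjusted p under 0.05, against 18.9% of all genes. Libraries were separated upward in 4, against 12.3% of all genes, and downward in 2, both of them type IV chains, against 10.7%. The endothelial markers, for cells whose basement membranes contain type IV collagen, had a median log2 fold change of -0.500 over 10 genes with all libraries and 0.409 without DSF replicate 2, and 0 of them were called. Their part in the differences of Col4a1 and Col4a2 was not tested.

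Leaving out DSF replicate 2 changed the fibrillar picture in the combination against DSF. With all libraries 5 of 9 fibrillar genes were higher, with a median log2 fold change of 0.0485. Without that library 9 of 9 were higher, with a median of 0.981. Col3a1 went from -0.399 ± 0.775 (edgeR adjusted p = 0.828) to 1.55 ± 0.465 (adjusted p = 0.0702), and Col1a2 from 0.0485 ± 0.719 (adjusted p = 0.980) to 1.5 ± 0.562 (adjusted p = 0.119). Col14a1 went from -0.359 ± 1.13 to 3.05 ± 0.863 (edgeR adjusted p = 0.0616). Then 15 of the 34 collagens had an unadjusted p under 0.05, against 27.2% of all genes, and 1 was called, against 4.2%. That 1 was Col6a5, at 3.61 ± 0.894 (edgeR adjusted p = 0.0499). It had only 13 and 5 counts in DSF replicates 1 and 3, and 267, 68 and 37 counts in combination replicates 1, 2 and 3. For DSF, all values without replicate 2 rest on DSF replicates 1 and 3 alone. The fibroblast marker shares of these 2 libraries were below all combination libraries, at 0.03% and 0.0367% against 0.0449% to 0.0613%. This was not particular to fibroblasts: the shares of endothelial, adipocyte, skin, Schwann cell and macrophage markers were also below all combination libraries. Those of pericyte and smooth muscle, skeletal muscle, cartilage and bone, and 4T1 epithelium markers overlapped. The part of these cell types was not tested.

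**Figure D5:**
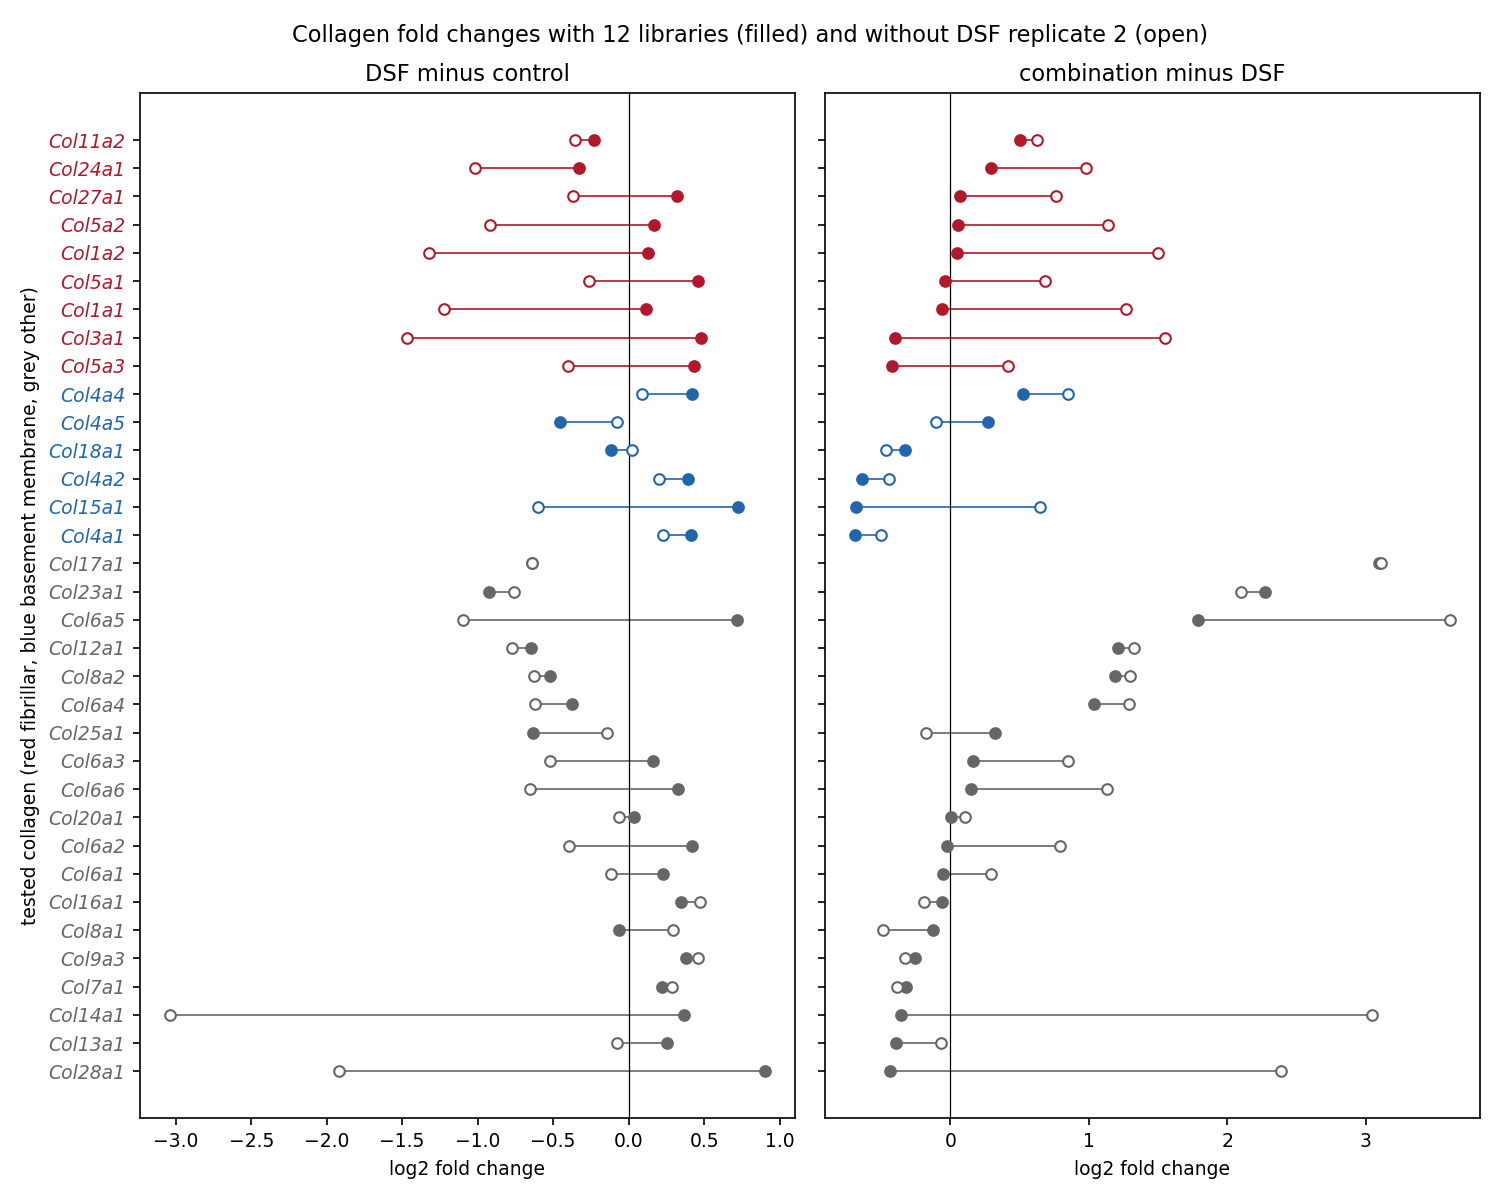
Log2 fold changes of the 34 tested collagens for DSF minus control (left) and combination minus DSF (right), with all libraries (filled) and without DSF replicate 2 (open). The fibrillar genes (red) move from a median of 0.165 to -0.918 on the left and from 0.0485 to 0.981 on the right, whereas Col17a1 stays at 3.10 and 3.11.

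The combination was also compared with anti-PD-1 alone. None of the 34 was called by edgeR, as for 0% of all genes, and 2 had an unadjusted p under 0.05, against 10.3%. These were Col17a1 (2.07 ± 0.647, edgeR adjusted p = 0.413) and the low Col4a4 (1.65 ± 0.657, adjusted p = 0.444), with group means of 0.709 and 0.220 CPM. All 9 fibrillar genes had a higher mean in the combination, with a median log2 fold change of 0.373, and no edgeR adjusted p was below 0.711. This comparison shares the combination libraries with those above.

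The interaction asks whether the change with DSF differed with and without anti-PD-1. By edgeR none of the 34 collagens was called, as for 0% of all genes, and 5 had an unadjusted p under 0.05, against 12.4%. Col17a1 had an interaction of 2.72 ± 0.913 on the log2 scale (edgeR adjusted p = 0.299), Col12a1 of 1.24 ± 0.439 (adjusted p = 0.306) and Col23a1 of 2 ± 0.786 (adjusted p = 0.339). Those of Col4a1 and Col4a2 were -0.702 ± 0.296 (edgeR adjusted p = 0.366) and -0.632 ± 0.280 (adjusted p = 0.389). The fibrillar median was 0.269, and 1.35 without DSF replicate 2, where 12 of the 34 had an unadjusted p under 0.05, against 21% of all genes, and 0 were called, as were 0% of all genes. DSF averaged over both backgrounds gave 0 called collagens (0% of all genes) and 1 at an unadjusted p of 0.05, Col4a4, against 8.15%. Anti-PD-1 averaged over both backgrounds gave 0 called (0%) and 5 at an unadjusted p of 0.05, against 10.1%: Col17a1 at 1.75 ± 0.460 (edgeR adjusted p = 0.187), Col23a1 at 1.27 ± 0.395, Col12a1 at 0.595 ± 0.220, Col4a2 at -0.322 ± 0.140 and Col4a1 at -0.339 ± 0.148. A test for any difference among the 4 groups gave 0 called by edgeR (0% of all genes) and 5 at an unadjusted p of 0.05, against 13.2%, and these were the same genes: Col17a1, Col23a1, Col12a1, Col4a1 and Col4a2. DESeq2 called 3 collagens in that test (6.15% of all genes), 1 in the combination against control (1.77%) and 1 for anti-PD-1 averaged over both backgrounds (2.27%), Col17a1 among them each time, beside the 5 in the combination against DSF. It called 0 collagens in the combination against anti-PD-1 (0.495% of all genes), for the interaction (1.66%) and for DSF averaged over both backgrounds (0.566%).

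Genes that act on collagens were read in the combination against DSF, the comparison with a called collagen. Procollagen chains are hydroxylated and folded in the endoplasmic reticulum, and of the 18 genes tested for these steps 1 fell, 0 rose and 16 had a lower mean, with a median log2 fold change of -0.302. Over all genes 0.255% were called lower in this comparison. P4ha1, a catalytic subunit of prolyl 4-hydroxylase, fell from 288 ± 21.6 CPM with DSF to 160.0 ± 28.5 CPM with the combination (SD, n = 3; log2 fold change -0.849 ± 0.184, edgeR adjusted p = 0.0453). Its paralogue P4ha2 was at -1.17 ± 0.297 (edgeR adjusted p = 0.0667) and the lysyl hydroxylase Plod2 at -0.810 ± 0.237 (adjusted p = 0.0933). In all 3, every combination library was below every DSF library, as for 10.7% of all genes. P4ha1 stayed called without DSF replicate 2, at -0.907 (edgeR adjusted p = 0.0456), where 4.2% of all genes were called.

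Of the 11 genes for other basement membrane components, 1 fell, 0 rose and 10 had a lower mean in the combination than with DSF, with a median of -0.537, and of -0.302 without DSF replicate 2, against 0.255% of all genes called lower. The laminin chain Lamb2 fell from 67.5 ± 7.08 to 42.8 ± 4.46 CPM (log2 fold change -0.659 ± 0.145, edgeR adjusted p = 0.0475), while Lamc1 was at -0.587 ± 0.133 (adjusted p = 0.0508) and Lamb1 at -0.563 ± 0.146 (adjusted p = 0.0685). Without DSF replicate 2 Lamb2 was at -0.607 (edgeR adjusted p = 0.0556) and no longer called. In DSF against control, all 11 had a higher mean, with a median of 0.367, and 0 were called.

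Among 9 genes for collagen breakdown and its inhibitors, 1 fell and 0 rose, against 0.255% and 1.6% of all genes. The gelatinase Mmp9, which cleaves denatured collagen and type IV collagen, fell from 275 ± 42.5 CPM with DSF to 77.7 ± 20.8 CPM with the combination (log2 fold change -1.82 ± 0.352, edgeR adjusted p = 0.0409). The neutrophil collagenase Mmp8 was at -1.54 ± 0.448 (edgeR adjusted p = 0.0921) and the inhibitor Timp2 at -0.372 ± 0.125 (adjusted p = 0.135). Mmp9 stayed called without DSF replicate 2, at -1.69 (edgeR adjusted p = 0.045), where 4.2% of all genes were called.

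The remaining lists had 0 called genes in this comparison. Of the 12 fibril-associated genes, fibronectin Fn1 was at -1.18 ± 0.305 (edgeR adjusted p = 0.0678), fibromodulin Fmod at 2.13 ± 0.891 (adjusted p = 0.226) and periostin Postn at 1.11 ± 0.475 (adjusted p = 0.235). Without DSF replicate 2 Fmod, at 4.14 (edgeR adjusted p = 0.0471), and Postn, at 1.83 (adjusted p = 0.045), passed the test. So did the proteoglycan lumican, Lum, at 1.7 (adjusted p = 0.045), and the list median went from 0.187 to 1.54. With that library left out, 4.2% of all genes were called, against 1.86% with all libraries. Of the 9 receptors, the integrin chain Itga2 was at -1.47 ± 0.360 (edgeR adjusted p = 0.0595), the inhibitory leukocyte receptor Lair1 at 1.33 ± 0.330 (adjusted p = 0.0619) and Itgb1 at -0.261 ± 0.110 (adjusted p = 0.229). Of the 10 TGF-beta genes, Smad3 was at -0.928 ± 0.245 (edgeR adjusted p = 0.0707) and Tgfbi at 0.870 ± 0.238 (adjusted p = 0.0765). Of the 6 genes for propeptide processing, Pcolce2, Bmp1 and Adamts2 had the smallest p-values, with edgeR adjusted p-values of 0.253, 0.298 and 0.577. Adamts2, a protease that removes amino propeptides, passed the test without DSF replicate 2, at 1.52 (edgeR adjusted p = 0.0471), as did 4.2% of all genes. Of the 5 cross-linking enzymes of the lysyl oxidase family, Loxl3 had the smallest p (-0.221 ± 0.144, edgeR adjusted p = 0.445), followed by Loxl4 and Loxl2. The list median was -0.130, and 0.723 without DSF replicate 2.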

How the data were processed

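RNA of tumour tissue was sequenced in 12 libraries on a BGISEQ-500, per the labels. Tools named in the submitters' processing notes, with no role stated, were RSEM 1.2.12, Bowtie2 2.2.5, HISAT2 2.0.4 and DESeq2 1.4.5; the genome build is not given in the sources used here. The authors deposited expected counts per gene, of which 9.02% were not whole, and FPKM per gene. Columns were assigned through the deposited group plan, in which columns named p are anti-PD-1; a control column ending in 11 was read as control 1.

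Expected counts were rounded, filtered with filterByExpr (minimum count 10), scaled by TMM and fitted with edgeR 4.0.16 in R 4.3.3, with 4 group means over 12 libraries. CPM are on scaled library sizes. Tests were two-sided, with Benjamini-Hochberg adjustment over 14144 genes and a threshold of 0.05. The SE is the log2 fold change divided by the square root of the quasi-likelihood F statistic. The alternatives were RLE scaling, no filter, DESeq2 1.42.0, a replicate block, only the groups compared, and each of the 12 libraries left out. Scripts were tested on simulated counts. The total count of 13323171 to 16809705 per library sets the precision, and the 95% Wilson intervals of shares cover counting error only.

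Replicate numbers were tested for pairing by the correlation of deviations from the group means. All 3 same-numbered pairs passed 0.1 for control and combination alone (0.266, 0.203 and 0.109), and there the replicate block changed no call.

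The members and lists were chosen with earlier results of these data known. Named genes are members called in any comparison, the 5 with the smallest p in each, the 3 with the highest FPKM of each class, chains of a shared trimer, members below detection in some libraries, and, of the pathway lists, members called and the 3 with the smallest p in the combination against DSF. Other members named for their range, for a separation of groups or as a contrast (Col6a5, Col14a1, Col15a1, Col20a1, Col7a1) were chosen after their values were seen. Deposited files other than the gene table were not used for values. A gene that the rule on pathway lists would name is not reported here.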

Additional observations from a re-analysis of the deposited data

How the results depend on the processing

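The number of collagens called in the combination against DSF was 1, and it was 0 without the filter on low counts, 0 with only the groups compared, 0 with a replicate block, 5 with DESeq2 and 0 to 2 as single libraries were left out. DESeq2 called 3 for any difference, 1 in the combination against control and 1 for the mean effect of anti-PD-1, where edgeR called 0. Leaving out single libraries gave 0 to 1 for that effect, the 1 without anti-PD-1 replicate 2. Other counts stayed at 0. Over all genes, the 263 called in the combination against DSF became 261 with RLE scaling, 220 without the filter, 1170 with DESeq2, 7 with a replicate block, 0 with only the groups compared and 0 to 601 as single libraries were left out. The log2 fold change of Col17a1 in the combination against DSF ran from 2.71 to 3.40 and its adjusted p from 0.000898 to 0.169. Signs turned only for values that were not called. With a replicate block, DSF against control was -0.0464 for Col3a1, -0.165 for Col1a1 and -0.169 for Col1a2, and the combination against DSF was 0.171 for Col3a1 and 0.281 for Col1a1. Leaving out single libraries gave, for DSF against control, -1.47 to 0.984 for Col3a1, -1.22 to 0.612 for Col1a1, -1.32 to 0.615 for Col1a2, -0.238 to 0.0207 for Col18a1, -0.119 to 0.428 for Col6a1 and -0.456 to 0.352 for Col8a1. For the combination against DSF it gave -0.904 to 1.55 for Col3a1, -0.557 to 1.27 for Col1a1, -0.441 to 1.5 for Col1a2, -0.246 to 0.293 for Col6a1, -0.244 to 0.112 for Col16a1 and -0.488 to 0.262 for Col8a1. The cause was not tested, except that the values without DSF replicate 2 rest on 2 DSF libraries. Medians also turned sign as single libraries were left out: the fibrillar median ran from -0.354 to 0.981 in the combination against DSF and from -0.142 to 1.35 for the interaction. The basement membrane median ran from -0.405 to 0.169 in the combination against control, and in the combination against DSF it was -0.185 over type IV chains alone. Apart from control and combination, no pair of groups had all same-numbered libraries correlated above 0.1. Over 18 such pairs the correlation ran from -0.366 to 0.462 and passed 0.1 in 10. With a replicate block the adjusted p of Col17a1 in the combination against DSF was 0.0749. Depth limits the 10 collagens that were not tested.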
